A study of Homo sapiens with 75 samples.

Results

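The death receptors FAS, TNFRSF10A and TNFRSF10B and the TRAIL decoy receptors TNFRSF10C and TNFRSF10D were followed through ionizing radiation in 5 human cell lines. They are 5 of the 19775 genes that the array's annotation names with 1 symbol, and 18 of its 54675 probe sets report on them. The 5 genes were chosen by name with earlier results of these data known, so counts of them beside the share of all genes are a description. Each was read from its brightest probe set, averaged over the 75 arrays. The lines, as labelled, were G361 melanoma, HepG2 hepatoma, TK6 B lymphoblastoid, U2OS osteosarcoma and BJ skin fibroblast cells, all grown in DMEM with 10% FCS. In each line, 3 arrays were made of untreated cells at 0, 3 and 6 h and of cells given 5 Gy and taken at 3 and 6 h. The untreated cells were mock-irradiated, so every comparison at 3 or 6 h is of handled cells with and without the dose. The labels do not say whether the 3 arrays of a group came from separate cultures, so the p-values speak only of array-to-array spread, which could be technical alone.

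Death receptors are cell-surface members of the tumour necrosis factor receptor family that carry a death domain on their cytoplasmic side. When FAS binds FAS ligand, or when TNFRSF10A (DR4) or TNFRSF10B (DR5) binds TRAIL, the death domains recruit the adaptor FADD and through it caspase-8, which starts the extrinsic route of apoptosis. TNFRSF10C (DcR1) and TNFRSF10D (DcR2) bind TRAIL as well but lack a working death domain, and are known as decoys. FAS and TNFRSF10B are textbook targets of p53, the transcription factor activated by DNA breaks, and p53 is known to bind FAS within its first intron.

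In RefSeq's table for GRCh38.p14, TNFRSF10B, TNFRSF10C, TNFRSF10D and TNFRSF10A are consecutive protein-coding genes on 1 chromosome, while FAS lies on chromosome 10. The RefSeq promoter table, which gives 250 bases before and 50 after an annotated start, held 3 windows for FAS and none that matched the other 4 genes. A search of both strands for the p53 half-site, the 10-base unit that p53 binds in pairs, matched 1 of the 3 windows, which is printed here because FAS was the receptor that rose in the most lines. On this plus-strand window, chr10:88991181-88991480, the capitals mark the half-site, which begins at position -122 from the start.

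FAS window 3: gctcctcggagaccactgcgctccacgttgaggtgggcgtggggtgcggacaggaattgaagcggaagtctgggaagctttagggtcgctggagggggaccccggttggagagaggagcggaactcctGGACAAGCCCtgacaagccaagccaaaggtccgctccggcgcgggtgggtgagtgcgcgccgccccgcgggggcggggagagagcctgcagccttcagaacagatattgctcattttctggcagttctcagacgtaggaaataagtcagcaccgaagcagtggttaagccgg

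The other FAS windows, chr10:88990548-88990847 and chr10:88990664-88990963, lie upstream of it and held 0 half-sites. A half-site occurred in 6.63% of the 35116 promoter windows of the same length in the table. The match is a description of these letters, and binding there was not measured.

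All values are log2 levels after robust multi-array averaging (RMA), so a difference of 1 is a doubling, and the number of arrays limits their precision. Array medians lay between 3.91 and 4.07, the correlation of arrays within a group over genes was between 0.974 and 0.997, and 0 pairs of arrays were identical. Cell type markers were highest in their own line for 7 of 7 melanocyte genes in G361, 10 of 10 B cell genes in TK6 and 12 of 12 fibroblast genes in BJ. Only 2 of 7 osteoblast genes were highest in U2OS. The arrays labelled HepG2 did not carry a liver profile: 1 of 10 hepatocyte genes was highest there, their mean was 3.87 to 4.10 against 3.61 to 4.73 in the other lines, and albumin (ALB) stood at 2.77. Those arrays are called HepG2-labelled from here on.

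Some arrays also went against their treatment labels. The mean of 22 p53 target genes, none of them a death receptor, was taken relative to the line's 0 h arrays. On this log2 scale the untreated arrays of TK6, U2OS and BJ at 3 and 6 h lay between -0.34 and 0.20, and their irradiated arrays between 0.51 and 1.74. In the HepG2-labelled arrays the untreated 6 h group stood at 0.89 to 0.94, close to the 1.01 to 1.14 of the irradiated 6 h group. In G361 the untreated array 3 at 3 h stood at 0.67 and the untreated arrays 1 and 2 at 6 h at 0.76 and 0.82 where the irradiated 6 h arrays spanned 0.40 to 0.71. The irradiated 3 h arrays of these 2 lines stood no higher than untreated ones, at -0.05 to 0.15 in G361, against 0.09 to 0.67 in untreated cells at 3 h, and at 0.01 to 0.21 in the HepG2-labelled arrays, against -0.01 to 0.35. For FAS and TNFRSF10B at 6 h, fold changes against untreated arrays of these 2 lines are therefore given with the comparison to 0 h beside them. Every direction in these 2 lines is that of the labels.

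**Figure D1:**
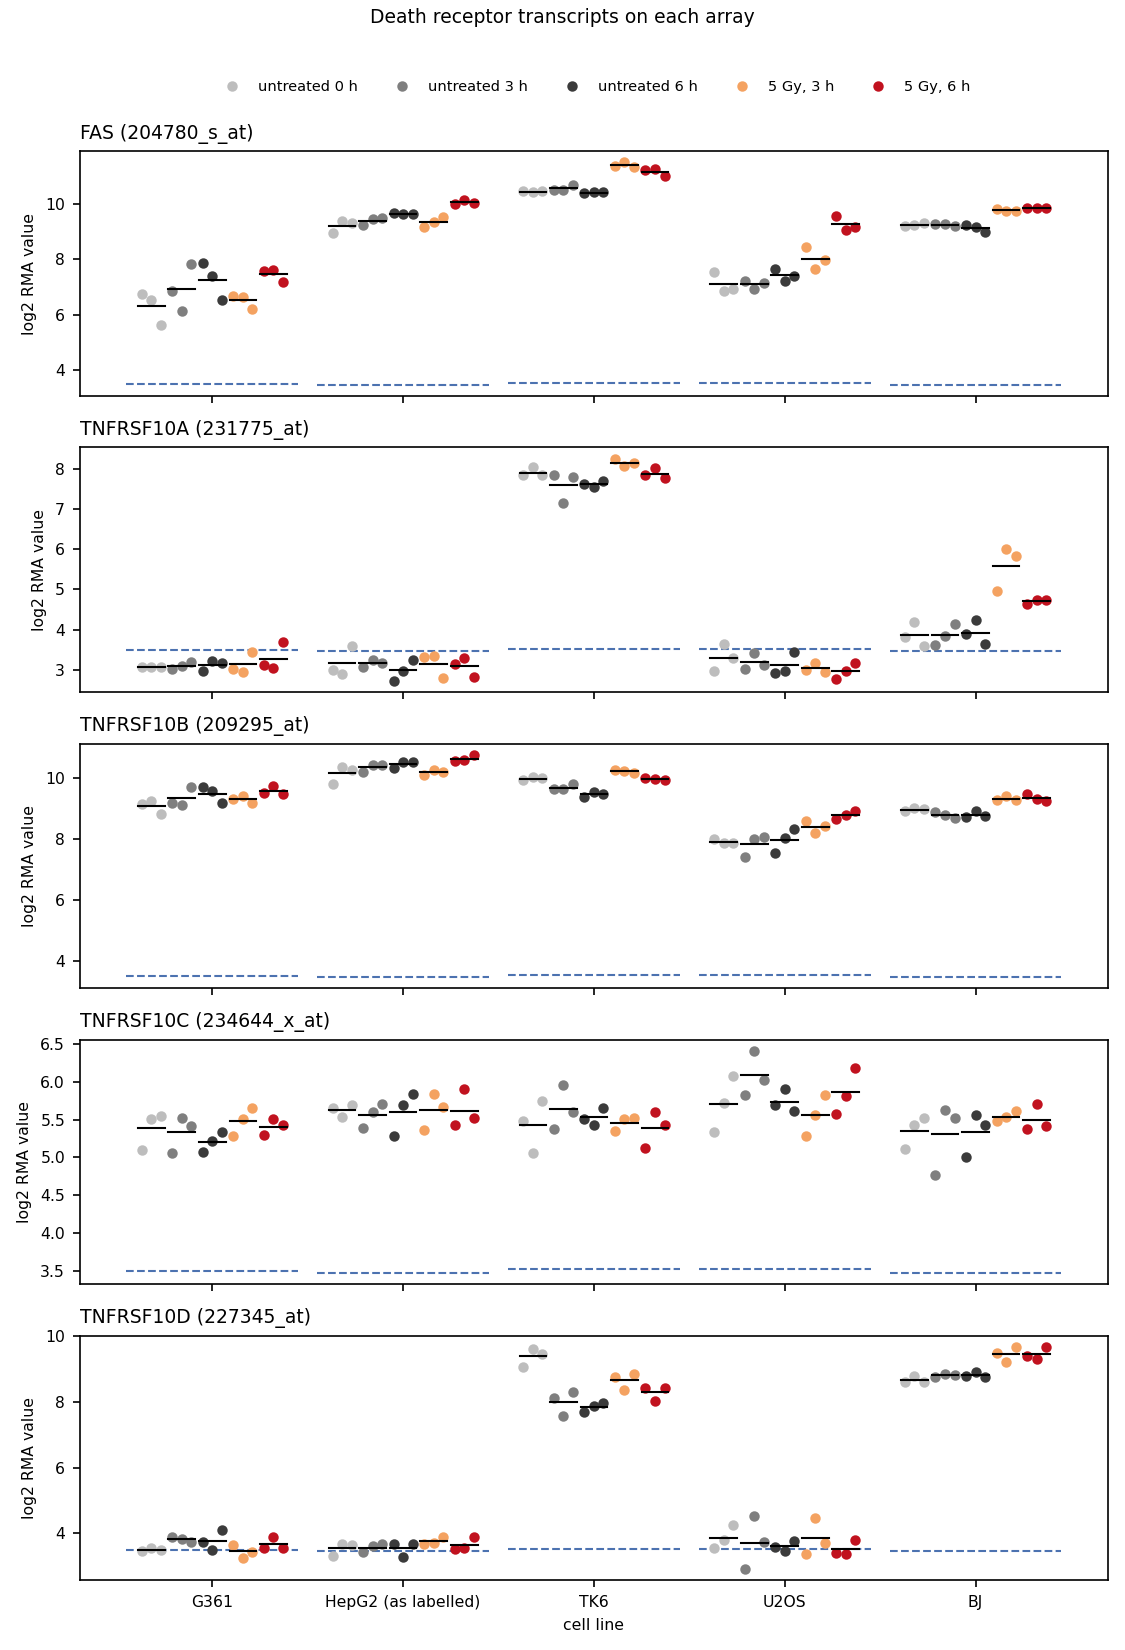
Log2 RMA value of the 5 receptors on all 75 arrays, by cell line and group, with the group mean as a bar and the level limit for testing as a dashed line; the vertical scale differs between panels. FAS and TNFRSF10B are well above the limit in all 5 lines, TNFRSF10A is high in TK6 and near the limit in BJ, TNFRSF10D is high in TK6 and BJ, and TNFRSF10C stays between 4.77 and 6.41.

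The lines differed widely in how much of each receptor they carried before treatment. In a bulk extract a higher level per cell and a larger share of cells with the transcript cannot be told apart. At 0 h FAS was highest in TK6 at 10.45 ± 0.02 (SD, n = 3), followed by BJ at 9.26 ± 0.05, HepG2-labelled cells at 9.21 ± 0.23, U2OS at 7.11 ± 0.36 and G361 at 6.31 ± 0.60. Neighbours in that order differed in limma's fit of all arrays except BJ and HepG2-labelled cells (adjusted p = 0.884). U2OS and G361 were 0.81 apart (adjusted p = 0.0022). Over all genes, 52 percent of the tests between 2 lines at 0 h passed, so a difference between lines is common on these arrays.

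TNFRSF10B, the TRAIL receptor DR5, had another order. HepG2-labelled cells at 10.14 ± 0.29 and TK6 at 9.97 ± 0.05 did not pass the test against each other (adjusted p = 0.334). G361 at 9.06 ± 0.22 and BJ at 8.96 ± 0.05 came next and did not pass it either (adjusted p = 0.578), and U2OS was lowest at 7.89 ± 0.07 (adjusted p = 2.51e-09 against BJ). U2OS and G361 were thus the lines with the least FAS, but G361 had more TNFRSF10B than U2OS by 1.17 (adjusted p = 1.46e-10).

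The other TRAIL receptors divided the lines more sharply. TNFRSF10A (DR4) was 7.91 ± 0.11 in TK6 at 0 h, 3.87 ± 0.29 in BJ and 3.07 to 3.30 on average in the other 3 lines, where its mean over the 15 arrays was under the level limit of 3.47 to 3.52 and it was not tested for treatment. The gap between TK6 and BJ was 4.04 on the log2 scale (adjusted p = 9.19e-27). TNFRSF10D (DcR2) was 9.37 ± 0.28 in TK6 and 8.66 ± 0.10 in BJ, 0.71 apart (adjusted p = 0.00506), and 3.50 to 3.87 in the other 3 lines, just above the limit at most. TNFRSF10C (DcR1) was 5.35 to 5.71 in the 5 lines by its brightest set, 234644_x_at, and neighbours in its order did not pass the test (adjusted p = 0.453 or more). Of its other probe sets, 234195_at was above the limit in 5 lines, 211163_s_at in 1 and 206222_at in 0. Whether this gene counts as detected thus depends on the probe set read. The decoy DcR2 was thus high in TK6 and BJ, and the death receptor DR4 in TK6, with BJ near the limit.

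**Figure D2:**
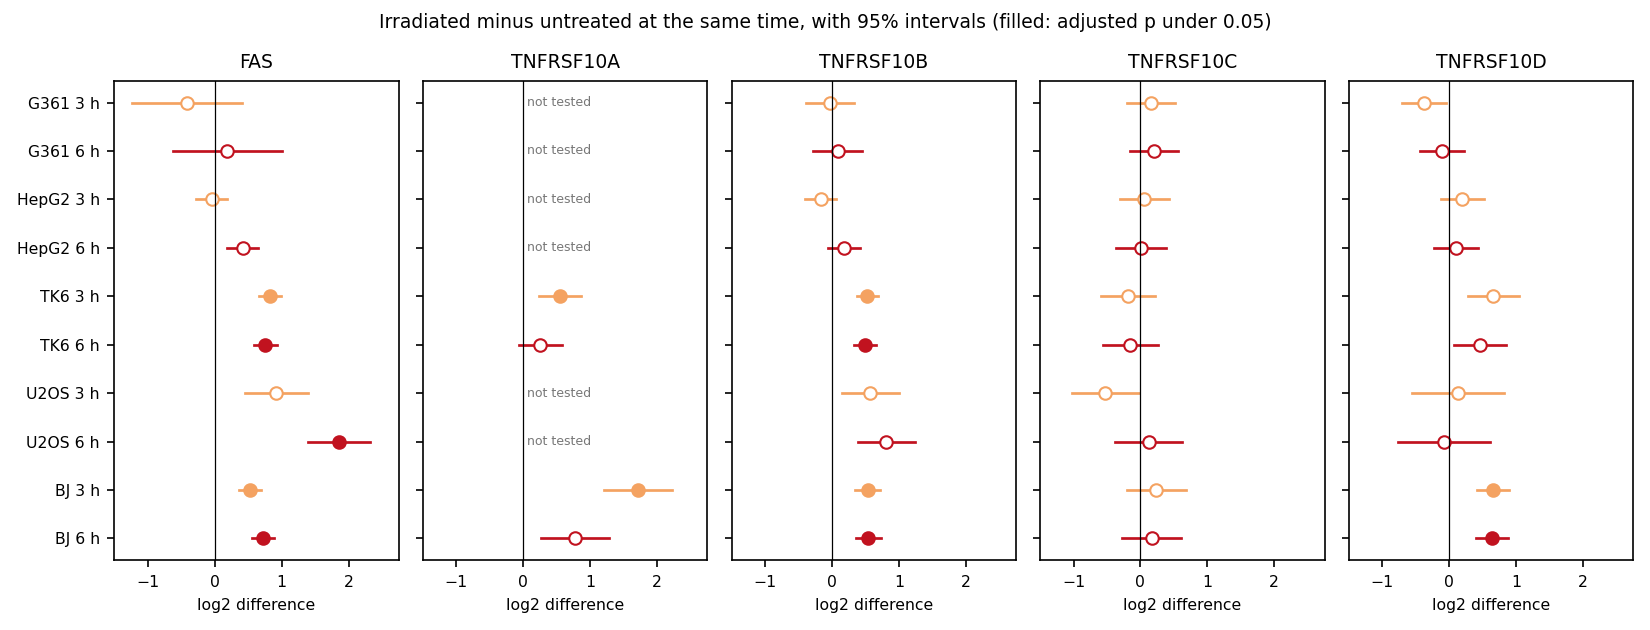
Log2 difference of irradiated from untreated arrays at the same time for each receptor and line, with its 95% interval from limma; filled points passed at an adjusted p under 0.05 and orange and red are 3 and 6 h. All filled points lie to the right of 0 and are in TK6, U2OS and BJ, and TNFRSF10A was not tested where its level was under the limit.

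In irradiated against untreated cells 4 of the 5 receptors rose in at least 1 line, and no receptor passed the test in the lower direction. The threshold was an adjusted p under 0.05 in limma's fit of the line's 15 arrays (Benjamini-Hochberg over the genes tested in that line). FAS passed in 5 of 10 comparisons of irradiated with untreated cells, TNFRSF10B in 4, TNFRSF10A in 2 of the 4 in which it was tested, TNFRSF10D in 2 and TNFRSF10C in 0. TNFRSF10C had 1 unadjusted p under 0.05, in U2OS at 3 h. By line, the members called were 3 at 3 h and 2 at 6 h in TK6, where 1.88 and 4.01 percent of all genes tested were called higher. In BJ they were 4 and 3, with 0.18 and 0.145 percent of all genes called higher. In U2OS they were 0 and 1, with 0.0751 and 0.307 percent. In G361 and the HepG2-labelled arrays no member was called at either time, and 0 percent of all genes were called higher. In limma's unadjusted p-values under 0.05, these lines had 1 member each, TNFRSF10D in G361 at 3 h and FAS in the HepG2-labelled arrays at 6 h, and U2OS at 3 h had 3. Groups that did not overlap, with the irradiated arrays higher, were seen for 4 members at each time in TK6 (8.37 and 13.1 percent of all genes), 4 at each time in BJ (3.6 and 5.92 percent) and 2 of the 4 tested at each time in U2OS (4.97 and 5.52 percent). In the HepG2-labelled arrays they were seen for 1 and then 2 of the 4 tested (4.56 and 7.2 percent), and in G361 for 0 of 4 (2.25 and 3.07 percent). In the other direction 1 tested member did not overlap, TNFRSF10D in G361 at 3 h, with 1.95 percent of all genes lower in that way.

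FAS in TK6 was level in untreated cells and nearly doubled after the dose. The untreated arrays read 10.46, 10.43 and 10.46 at 0 h, 10.51, 10.50 and 10.70 at 3 h, and 10.38, 10.43 and 10.42 at 6 h. The irradiated arrays read 11.36, 11.50 and 11.33 at 3 h and 11.22, 11.26 and 11.02 at 6 h. Every irradiated array was above every untreated one. FAS rose 1.77-fold at 3 h (log2 0.83, SE 0.08, adjusted p = 1.77e-06) and 1.69-fold at 6 h (log2 0.76, SE 0.08, adjusted p = 6.34e-06). Both calls held without any 1 array, with adjusted p of at most 8.93e-05.

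In U2OS FAS started from a lower level. It read 7.53, 6.87 and 6.94 at 0 h, 7.22, 6.92 and 7.15 in untreated cells at 3 h and 7.64, 7.22 and 7.39 at 6 h. After irradiation it read 8.44, 7.64 and 7.97 at 3 h and 9.57, 9.07 and 9.18 at 6 h. The irradiated arrays were above the untreated arrays of the same time at both times, and the 6 h arrays were all above the 3 h arrays. At 6 h FAS rose 3.62-fold (log2 1.86, SE 0.22, adjusted p = 0.000134), and it ranked 5th of 14654 genes in size of increase. Against 0 h the rise at 6 h was 2.16 (adjusted p = 1.92e-05), where 0.416 percent of all genes were called higher. At 3 h the difference of 0.92 (SE 0.22) did not pass (adjusted p = 0.278), but it passed with the replicate number as a block (adjusted p = 0.0036). Against 0 h the 3 h difference was 0.90 (adjusted p = 0.270, and 0.00344 with the block). The median difference of all genes in U2OS at 3 h was itself 0.10 and fell to 0.01 after quantile normalization of the 15 arrays, which left FAS at 0.78. The step from 3 to 6 h, 0.94 (SE 0.31, unadjusted p = 0.00791), did not pass over all genes, of which 0 did.

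In BJ fibroblasts the FAS arrays of each group lay close together. Untreated arrays read 9.20, 9.25 and 9.31 at 0 h, 9.29, 9.26 and 9.21 at 3 h and 9.25, 9.16 and 8.98 at 6 h. Irradiated arrays read 9.83, 9.74 and 9.76 at 3 h and 9.84, 9.86 and 9.85 at 6 h. The groups did not overlap at either time. FAS rose 1.43-fold at 3 h (log2 0.52, SE 0.08, adjusted p = 0.00352) and 1.65-fold at 6 h (log2 0.72, SE 0.08, adjusted p = 0.000267). Neither call was lost without any 1 array, the highest adjusted p being 0.0385. In 1 fit of all 75 arrays, whose spread is shared with the other lines, neither FAS change in BJ passed (adjusted p = 1.0 at 3 h and 0.198 at 6 h).

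FAS in the HepG2-labelled arrays climbed with time in both arms. The untreated arrays read 8.95, 9.37 and 9.30 at 0 h, 9.23, 9.44 and 9.48 at 3 h and 9.66, 9.63 and 9.64 at 6 h, and the irradiated arrays 9.16, 9.35 and 9.53 at 3 h and 9.99, 10.16 and 10.03 at 6 h. The 6 h irradiated arrays were the highest of the line, followed by the 6 h untreated arrays. Irradiated cells were 0.42 above untreated cells at 6 h (SE 0.11), which did not pass (adjusted p = 0.267) but did with the replicate number as a block (adjusted p = 0.0276). Against 0 h, FAS rose 1.81-fold in irradiated cells at 6 h (log2 0.85, adjusted p = 0.000158), in a comparison in which 1.31 percent of all genes were called higher. The untreated 6 h arrays, whose p53 targets stood high, differed from 0 h by 0.44, where 0.508 percent of all genes were called higher (adjusted p = 0.088, and 0.035 without untreated array 2 at 0 h).

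FAS in G361 was low and scattered. It read 6.76, 6.53 and 5.63 in untreated cells at 0 h, 6.84, 6.12 and 7.82 at 3 h and 7.88, 7.39 and 6.52 at 6 h. After the dose it read 6.67, 6.66 and 6.21 at 3 h and 7.56, 7.61 and 7.19 at 6 h. The 3 untreated arrays with high p53 targets were those at 7.82, 7.88 and 7.39. The differences of irradiated from untreated cells, -0.41 at 3 h and 0.19 at 6 h (SE 0.39), did not pass, and both changed sign when single arrays were left out. Against 0 h the irradiated 6 h arrays were higher by 1.15 (SE 0.39, unadjusted p = 0.00875) and did not overlap, but in limma's fit 0 of 14487 genes passed there after adjustment and 569 had an unadjusted p under 0.05.

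**Figure D3:**
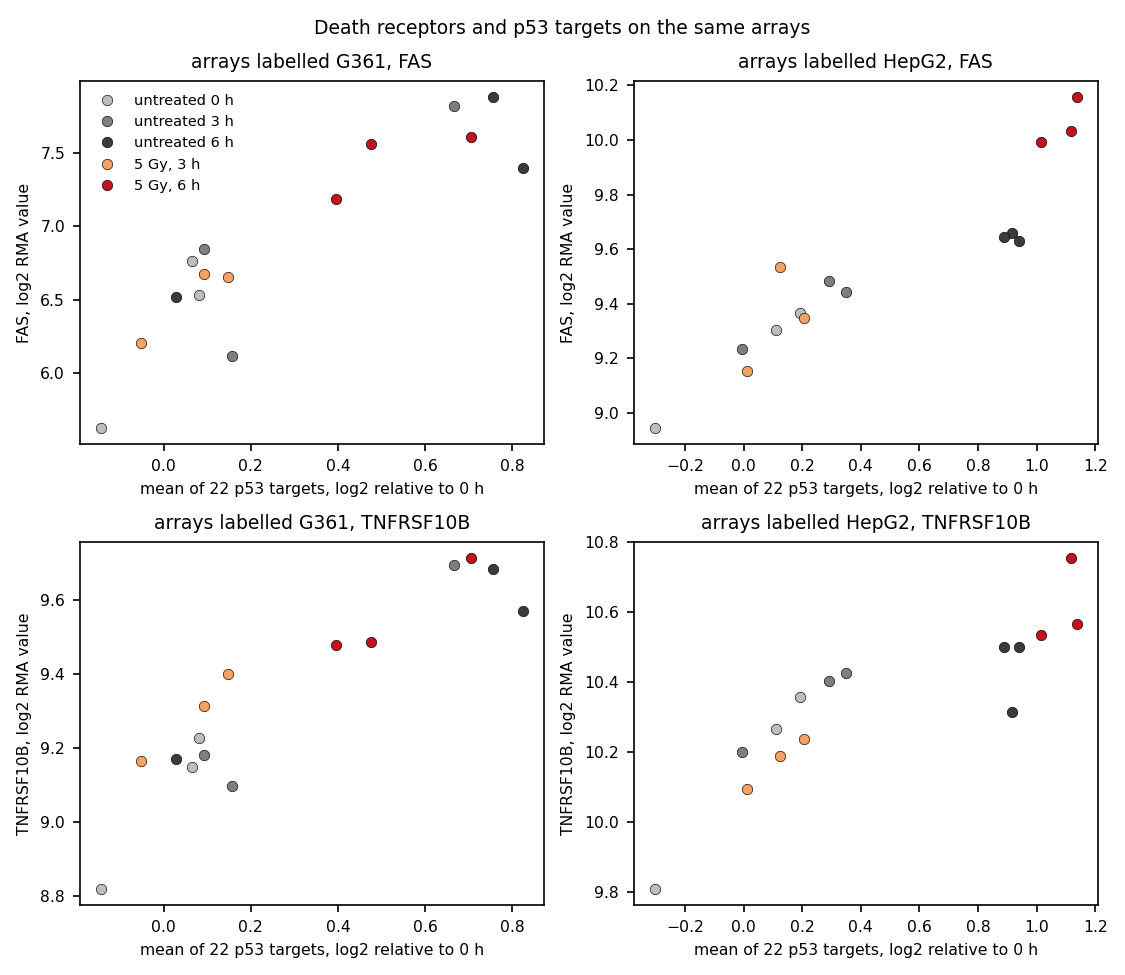
FAS (top) and TNFRSF10B (bottom), log2 RMA value, against the averaged log2 change of 22 p53 targets from 0 h, for the 15 arrays labelled G361 (left) and the 15 labelled HepG2 (right), coloured by labelled group. In G361 the untreated array at 0.67 and those at 0.76 and 0.82 on the horizontal axis sit with the irradiated 6 h arrays in both receptors.

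TNFRSF10B rose in TK6 and BJ by about the same amount at both times. In TK6 the untreated arrays read 9.92, 10.01 and 9.98 at 0 h, 9.62, 9.64 and 9.78 at 3 h and 9.37, 9.55 and 9.48 at 6 h, and the irradiated arrays 10.24, 10.23 and 10.15 at 3 h and 9.99, 9.97 and 9.93 at 6 h. The irradiated arrays lay above the untreated ones of the same time, and the untreated cells themselves drifted down. The differences were 0.53 at 3 h (SE 0.08, adjusted p = 0.000219) and 0.50 at 6 h (SE 0.08, adjusted p = 0.000411), or 1.44-fold and 1.41-fold. Both held without any 1 array (adjusted p at most 0.00331).

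TNFRSF10B also changed in the TK6 cells that got no dose. It fell by 0.50 from 0 to 6 h (SE 0.08, adjusted p = 0.00109), in a comparison in which 3.35 percent of all genes were called lower, and with the mean of its probe sets that fall did not pass (adjusted p = 0.061). The irradiated arrays at 6 h differed from 0 h by only -0.01 (95% interval -0.17 to 0.16). At 3 h, where 4.36 percent of all genes were called higher, they were 0.24 above 0 h (SE 0.08, adjusted p = 0.0595, or 0.0148 when replicate numbers are blocked).

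In BJ TNFRSF10B read 8.90, 9.00 and 8.97 at 0 h, 8.88, 8.78 and 8.68 in untreated cells at 3 h and 8.71, 8.91 and 8.74 at 6 h. The irradiated arrays read 9.26, 9.40 and 9.28 at 3 h and 9.46, 9.31 and 9.23 at 6 h, all above the highest untreated array. The differences were 0.53 at 3 h (SE 0.09, adjusted p = 0.0104) and 0.54 at 6 h (SE 0.09, adjusted p = 0.0131). Single arrays decided both calls. The 3 h call was lost without irradiated array 2 or untreated array 2 or 3 (adjusted p up to 0.107). The 6 h call was lost without irradiated array 1 or 2 or untreated array 1 or 3 (adjusted p up to 0.0838). The differences stayed between 0.48 and 0.60. Against 0 h, irradiated cells were 0.36 higher at 3 h (adjusted p = 0.139) and 0.37 higher at 6 h (adjusted p = 0.0353). Of all genes, 0.207 and 0.691 percent were called higher there. The 6 h call against 0 h was lost without any 1 array of either group (adjusted p up to 0.169). Untreated cells differed from 0 h by -0.18 at 3 h and -0.17 at 6 h, which did not pass.

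TNFRSF10B in U2OS read 7.97, 7.85 and 7.85 at 0 h, 7.41, 8.00 and 8.06 in untreated cells at 3 h and 7.55, 8.01 and 8.32 at 6 h. The irradiated arrays read 8.58, 8.18 and 8.43 at 3 h and 8.64, 8.76 and 8.90 at 6 h. They did not overlap with untreated arrays of the same time, of which array 1 was the lowest at both times. The 6 h difference of 0.81 (SE 0.20, 1.75-fold) did not pass in the line's fit (adjusted p = 0.104) but passed when replicate numbers were blocked (adjusted p = 0.0148). Against 0 h it was 0.88 (adjusted p = 0.0547, and 0.00566 with the block). At 3 h it was 0.57 (SE 0.20, adjusted p = 0.909).

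In G361 TNFRSF10B followed the same arrays as FAS. It read 9.15, 9.23 and 8.82 at 0 h, 9.18, 9.10 and 9.69 in untreated cells at 3 h and 9.68, 9.57 and 9.17 at 6 h, against 9.31, 9.40 and 9.16 and then 9.49, 9.71 and 9.48 after the dose. The untreated arrays at 9.69, 9.68 and 9.57 were the 3 with high p53 targets. Differences from untreated cells were -0.03 at 3 h and 0.08 at 6 h (SE 0.17) and did not pass. Against 0 h the irradiated 6 h arrays were 0.50 higher (SE 0.17, unadjusted p = 0.00987 in limma's fit). There 0 of 14487 genes passed after adjustment and 569 had an unadjusted p under 0.05. In HepG2-labelled cells the untreated group means were 10.14, 10.34 and 10.44 at 0, 3 and 6 h, and the irradiated means 10.17 at 3 h and 10.62 at 6 h. There the differences of -0.17 and 0.18 (SE 0.11) did not pass. The irradiated 6 h arrays were 0.47 above 0 h (adjusted p = 0.0363), a call lost without any of the 3 irradiated arrays or untreated array 1 (adjusted p up to 0.190).

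**Figure D4:**
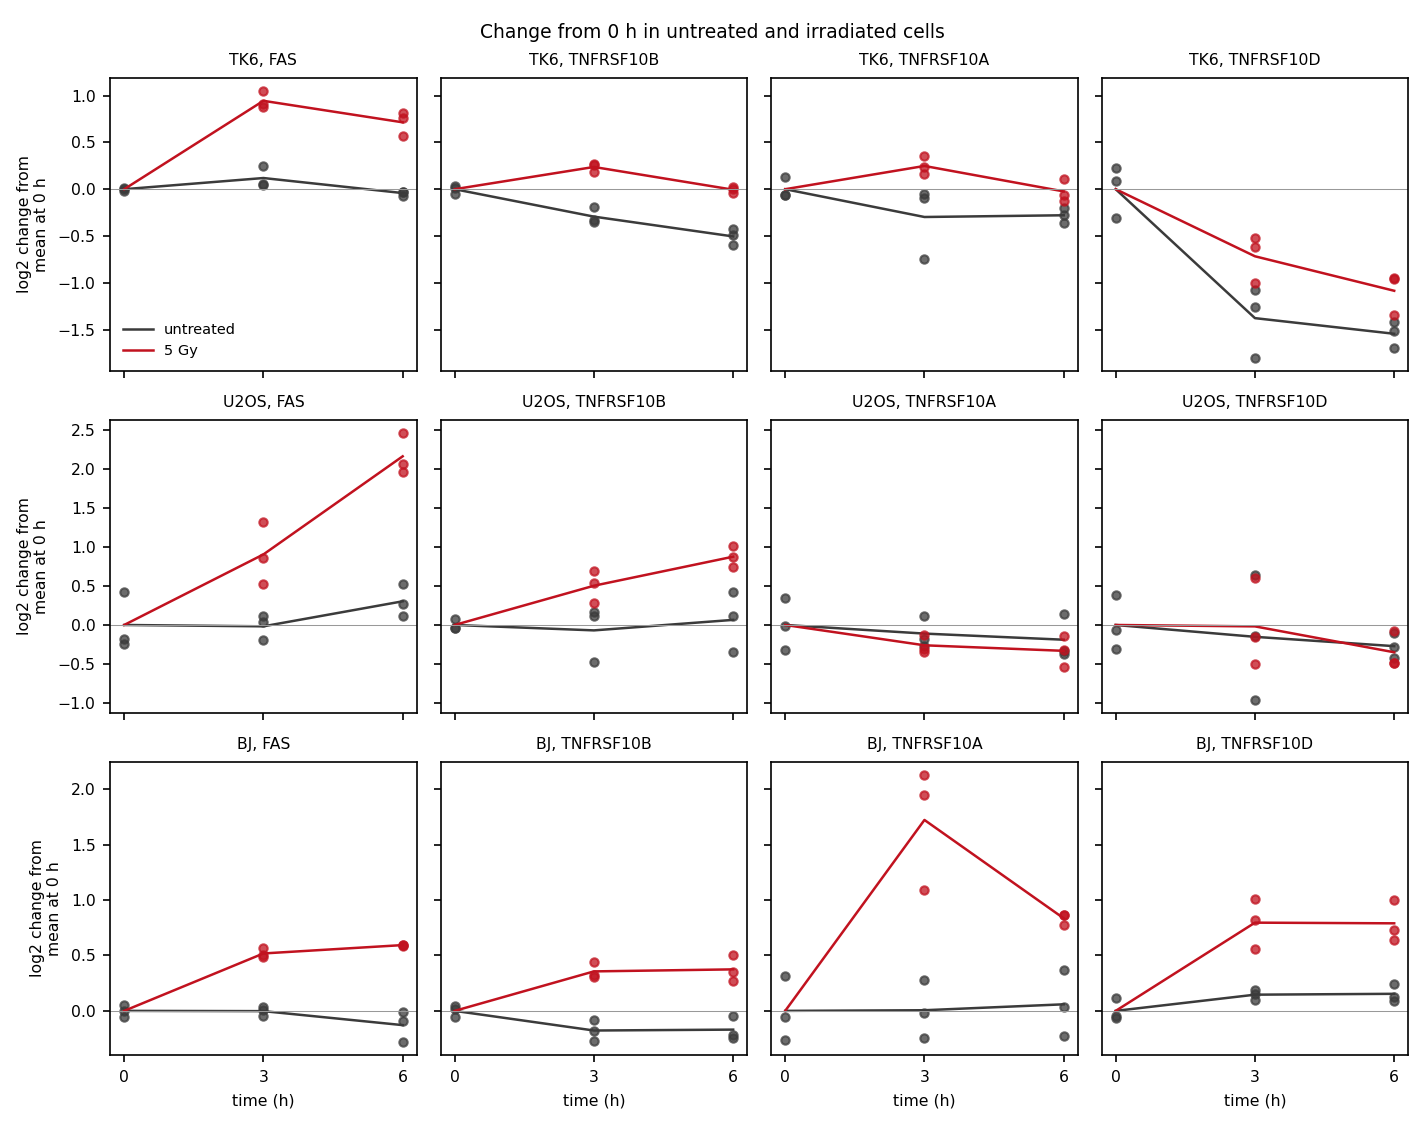
Log2 change from the line's 0 h mean in untreated (black) and irradiated (red) arrays of TK6, U2OS and BJ for 4 receptors, with lines through group means and 1 point per array; vertical scales differ between lines. TNFRSF10D falls in both arms in TK6, TNFRSF10A peaks at 3 h in irradiated BJ cells, and TNFRSF10A and TNFRSF10D in U2OS are near or under the level limit.

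TNFRSF10A rose most in BJ fibroblasts, and there from a level near the limit. It read 3.82, 4.18 and 3.60 at 0 h, 3.62, 3.85 and 4.15 in untreated cells at 3 h and 3.90, 4.23 and 3.64 at 6 h. In irradiated cells it read 4.96, 6.00 and 5.82 at 3 h and 4.65, 4.73 and 4.73 at 6 h. All irradiated arrays were above all untreated ones, and the 3 h arrays were the highest. At 3 h it rose 3.29-fold (log2 1.72, SE 0.24, adjusted p = 0.00173), the 3rd largest increase of 14467 genes in that comparison, and the call held without any 1 array (adjusted p at most 0.0197) but not in a fit of the compared arrays alone (adjusted p = 0.0573). At 6 h the difference of 0.78 (SE 0.24) did not pass (adjusted p = 0.42). The change between the times, -0.94 (SE 0.34, unadjusted p = 0.013), did not pass over all genes either, of which 0 did.

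In TK6, the line with the most TNFRSF10A, the gene moved less. The untreated arrays read 7.84, 8.03 and 7.84 at 0 h, 7.86, 7.16 and 7.81 at 3 h and 7.63, 7.55 and 7.71 at 6 h, and the irradiated arrays 8.26, 8.07 and 8.14 at 3 h and 7.84, 8.02 and 7.78 at 6 h. Irradiated arrays were above the untreated ones of the same time, with untreated array 2 at 3 h far below the other two. The 3 h difference of 0.55 (SE 0.15) just passed (adjusted p = 0.0495). It did not without that untreated array (0.32, adjusted p = 0.203) or without any 1 of the 3 irradiated arrays, and among the other settings tried it passed only with quantile normalization and with the replicate block. At 6 h the difference was 0.26 (SE 0.15, adjusted p = 0.435). Against 0 h the irradiated arrays differed by 0.25 at 3 h (adjusted p = 0.391) and by -0.02 at 6 h (adjusted p = 0.957). Untreated cells differed from 0 h by -0.30 at 3 h and -0.28 at 6 h, which did not pass either.

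TNFRSF10D, the decoy DcR2, rose in irradiated BJ cells by about the same factor as DR5 and FAS. Untreated arrays read 8.59, 8.78 and 8.61 at 0 h, 8.76, 8.85 and 8.81 at 3 h and 8.79, 8.91 and 8.75 at 6 h. Irradiated arrays read 9.49, 9.22 and 9.67 at 3 h and 9.39, 9.30 and 9.66 at 6 h, and did not overlap with them. The differences were 0.65 at 3 h (SE 0.11, adjusted p = 0.0166) and 0.64 at 6 h (SE 0.11, adjusted p = 0.0194), 1.57-fold and 1.55-fold. Each was lost without any 1 of the 3 untreated arrays of its time or without irradiated array 1 or 3, with adjusted p up to 0.165 and 0.157. Against 0 h the rises were 0.80 (adjusted p = 0.00228) and 0.79 (adjusted p = 0.00195), where 0.207 and 0.691 percent of all genes were called higher, and these held without any 1 array (adjusted p at most 0.0232).

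In TK6 the same decoy fell with time in both arms. It read 9.06, 9.60 and 9.46 at 0 h, 8.11, 7.57 and 8.30 in untreated cells at 3 h and 7.67, 7.86 and 7.96 at 6 h, so every later untreated array was below every 0 h array. Untreated TNFRSF10D fell by 1.38 at 3 h (SE 0.18, adjusted p = 0.00124) and by 1.55 at 6 h (SE 0.18, adjusted p = 0.000173), 2.60-fold and 2.92-fold lower. Among all genes 1.08 and 3.35 percent were called lower in these comparisons. Both held without any 1 array (adjusted p at most 0.015).

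The irradiated TK6 arrays read 8.75, 8.37 and 8.85 at 3 h and 8.41, 8.03 and 8.42 at 6 h, between the untreated arrays of the same time and those at 0 h. TNFRSF10D was thus below its 0 h level in irradiated cells too, with a difference of -1.09 at 6 h (SE 0.18, adjusted p = 0.000592), where 6.81 percent of all genes were called lower. At 3 h, where 6.14 percent were called lower, the difference from 0 h was -0.72 (adjusted p = 0.0154), a call lost without untreated array 2 or 3 at 0 h or irradiated array 2 (adjusted p up to 0.0972). Against untreated cells at 3 h it was 0.66 higher (SE 0.18), with an adjusted p of 0.0501, just outside the threshold, and of 0.00902 when replicate numbers are blocked. It also passed without irradiated array 2 or untreated array 3 (lowest adjusted p 0.0277). At 6 h it was 0.46 higher (SE 0.18, adjusted p = 0.174).

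In G361, HepG2-labelled and U2OS cells TNFRSF10D stayed between 2.91 and 4.52 on every array. None of the 6 comparisons with untreated cells passed there, with 1 unadjusted p under 0.05, for a difference of -0.38 in G361 at 3 h (unadjusted p = 0.0265). Decoy TNFRSF10C read 4.77 to 6.41 over the 75 arrays. Its irradiation differences ran from -0.53 in U2OS at 3 h (SE 0.24, adjusted p = 0.909) to 0.24 in BJ at 3 h.

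Whether the response differed between lines was tested in 1 fit of all 75 arrays. At 3 h the irradiation effect differed over the 5 lines for FAS (adjusted p = 0.0249), TNFRSF10A (adjusted p = 1.71e-05) and TNFRSF10B (adjusted p = 0.0259), among 1.34 percent of genes, and at 6 h for FAS (adjusted p = 0.00437), among 1.83 percent. TNFRSF10B at 6 h did not pass (adjusted p = 0.161) but did with the replicate block (adjusted p = 0.0382). These tests include the G361 and HepG2-labelled arrays whose p53 targets went against their labels, and for TNFRSF10A they include 3 lines in which it was under the level limit. With TK6, U2OS and BJ alone, only TNFRSF10A at 3 h still passed (adjusted p = 0.000102), while FAS had adjusted p of 0.961 at 3 h and 0.0516 at 6 h and TNFRSF10B at 3 h 0.996. U2OS is 1 of the lines in which TNFRSF10A was under the level limit, so that call says little about U2OS.

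Pair by pair, the TNFRSF10A response at 3 h was larger in BJ than in TK6, with a difference TK6 minus BJ of -1.17 (95% interval -1.76 to -0.59, adjusted p = 0.0298), among 0.742 percent of genes. That call was lost without replicate 1, 2 or 3 of every group (adjusted p = 0.0944, 0.504 and 0.460) and with the mean of the gene's probe sets (adjusted p = 0.0689). For U2OS against BJ at 3 h, TNFRSF10A was the only gene of 16027 called, 0.00624 percent, but in U2OS it was under the level limit and it entered this fit through its level in TK6 and BJ, so no size is given for that pair. The FAS response at 6 h was -1.10 in TK6 minus U2OS (95% interval -1.75 to -0.45) and 1.13 in U2OS minus BJ (95% interval 0.48 to 1.79). Neither passed over all genes (adjusted p = 0.0862 and 0.272), but both did with the replicate block (adjusted p = 0.0207 and 0.0498), and without it 1.12 and 0.137 percent of genes passed for these pairs. For TNFRSF10B the largest difference between a pair of these 3 lines was TK6 minus U2OS at 6 h, at -0.31 (95% interval -0.72 to 0.10), and neither that receptor nor any other passed for TK6 against U2OS at 3 h or TK6 against BJ at 6 h, where 0.792 and 1.45 percent of genes did.

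**Figure D5:**
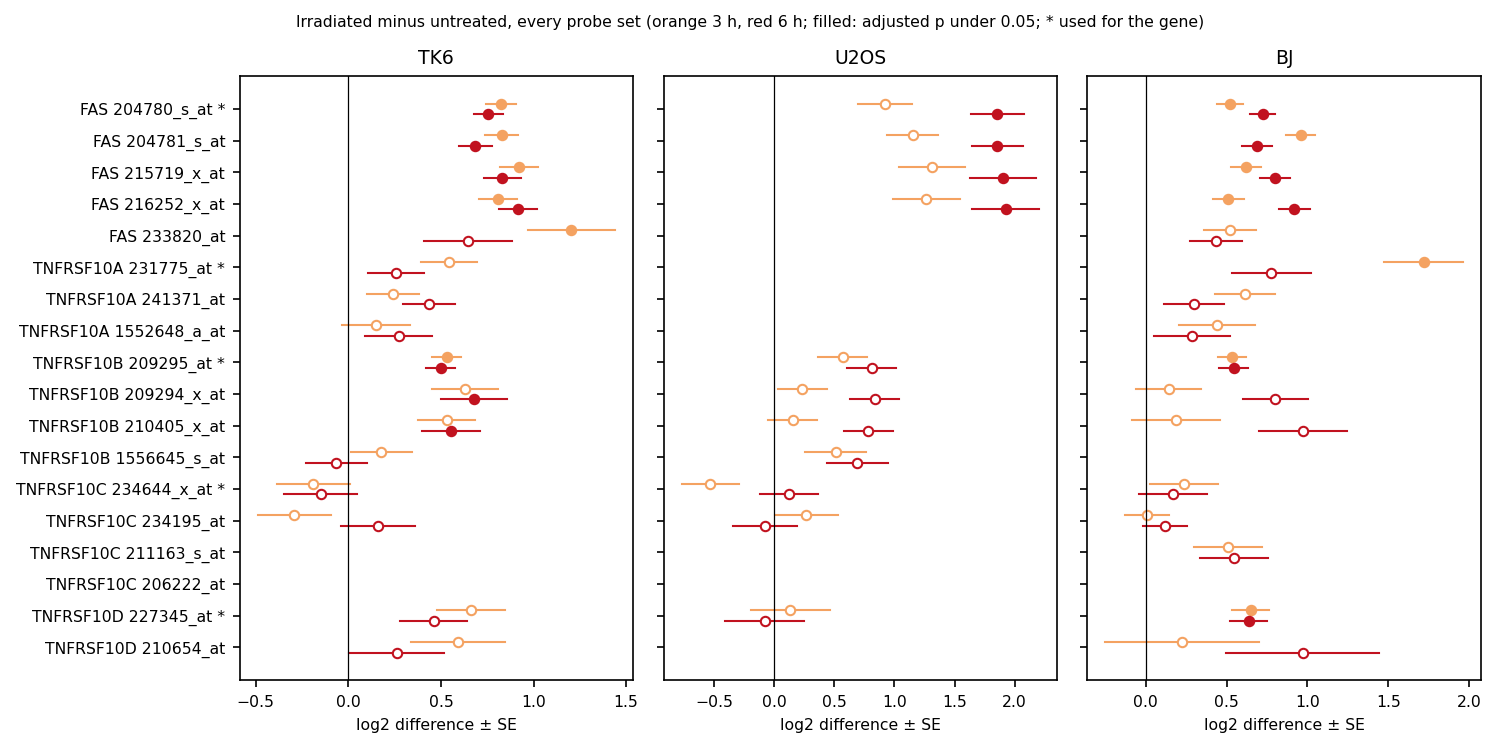
Log2 difference of irradiated from untreated arrays ± SE for each of the 18 probe sets of the receptors in TK6, U2OS and BJ, at 3 h (orange) and 6 h (red), where the line's mean was above the limit; filled points passed in a fit of all probe sets. The 4 brighter FAS probe sets move together, whereas TNFRSF10A in BJ at 3 h is at 1.72 by the set used for the gene and at 0.62 and 0.44 by the others.

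Several probe sets read each receptor, and they were compared in a fit that kept all of them. For FAS, 204780_s_at, used above, and 204781_s_at, 215719_x_at and 216252_x_at each passed in the same number of irradiation comparisons, 5 of 10. Their differences were 0.51 to 0.96 in BJ at 3 h, 0.69 to 0.92 in TK6 at 6 h and 1.86 to 1.93 in U2OS at 6 h. The dimmer 233820_at passed in 1 of 6. Over the 75 arrays the 3 brighter ones correlated with the set used at 0.970 to 0.991, a description in which the line levels count most.

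For TNFRSF10A the probe sets disagreed in size. In BJ at 3 h, 231775_at showed 1.72, whereas 241371_at showed 0.62 (SE 0.19) and 1552648_a_at 0.44 (SE 0.24), and neither of these passed. Array by array, 241371_at read 3.71, 3.74 and 4.18 untreated and 4.64, 4.76 and 4.08 irradiated, with the third irradiated array inside the untreated range. The mean of the 3 sets rose by 0.92. For TNFRSF10B, the dimmest set, 1556645_s_at, passed in 0 of 8 irradiation comparisons. Its correlation over the 75 arrays with 209295_at, the set used above, was -0.12, against 0.73 and 0.74 for 209294_x_at and 210405_x_at. Those 2 sets were near 209295_at in TK6 at 6 h, at 0.68 (adjusted p = 0.0337) and 0.55 (adjusted p = 0.0469). In BJ at 3 h they showed only 0.14 (SE 0.20) and 0.19 (SE 0.27), and the mean of the probe sets 0.25 (adjusted p = 1.0). For TNFRSF10D, 210654_at fell in untreated TK6 cells as well, from 6.37, 6.48 and 6.30 at 0 h to 4.89, 5.45 and 5.50 at 3 h. In irradiated against untreated cells it passed in 0 of the 4 comparisons in which it was tested. The set used above, 227345_at, passed in 2 of 10. The TNFRSF10C sets correlated with 234644_x_at at only 0.11 to 0.49, and 206222_at was under the limit in all 5 lines. Of its sets, 234195_at was tested in 10 irradiation comparisons and 211163_s_at in 2, and neither passed in any of them.

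The ligands gave little signal. FASLG, which encodes FAS ligand, read 3.44 to 4.56 over the 75 arrays and passed in none of 10 irradiation comparisons (lowest unadjusted p = 0.147). TNFSF10, which encodes TRAIL, was above the limit in TK6 only. There it read 4.46, 4.41 and 5.20 in untreated and 6.06, 5.87 and 5.08 in irradiated cells at 6 h, where irradiated array 3 was below untreated array 3. Its difference of 0.98 (SE 0.32) did not pass (adjusted p = 0.0851).

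Downstream of the receptors, 29 of 35 listed genes (ligands, other receptors and decoys, adaptors, initiator caspases, inhibitors and effectors) were analysed, and 25 to 28 were tested per comparison. Calls came from TK6, with 4 of 27 called at 3 h, 2 in each direction, and 2 of 27 at 6 h, both higher. Among all genes 1.88 percent were called higher and 2.11 percent lower at 3 h, and 4.01 percent higher at 6 h. PIDD1, a death-domain adaptor that p53 induces, rose by 1.13 at 3 h (SE 0.12, adjusted p = 8.69e-06) and 1.25 at 6 h (adjusted p = 3.29e-06). EDA2R, another member of the tumour necrosis factor receptor family, rose by 0.81 (adjusted p = 0.0208) and 0.88 (adjusted p = 0.00899). FADD, the adaptor of FAS and the TRAIL receptors, fell by 0.42 at 3 h (SE 0.10, adjusted p = 0.0186), and at 6 h its difference was -0.07. DAXX, a FAS-associated protein named after its value was seen, fell by 0.43 at 3 h (adjusted p = 0.0359). The list's median difference in TK6 was -0.02 at 3 h and 0.05 at 6 h, against 0.01 at both times for all genes. In the other 4 lines none of the 25 to 28 genes passed at either time. The other listed genes were not analysed here.

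For scale, p53 targets with no part in death receptor signalling were read from the same fits. CDKN1A, the cell-cycle inhibitor p21, rose by 2.25 at 3 h and 1.81 at 6 h in TK6, by 1.33 and then 1.41 in U2OS, and by 1.28 and then 1.04 in BJ. MDM2, which encodes the ligase that degrades p53, rose by 1.88 in both TK6 comparisons, by 1.41 and then 0.95 in BJ and by 1.47 in U2OS at 6 h, while its 0.73 in U2OS at 3 h did not pass (adjusted p = 0.492). GDF15, a secreted p53 target, rose by 3.02 and then 3.16 in TK6, 2.76 and then 2.81 in U2OS, and 2.23 and then 1.22 in BJ. In G361 and the HepG2-labelled arrays none of CDKN1A, MDM2 and GDF15 passed at either time, with differences from -0.74 to 0.14. FAS thus changed less than CDKN1A in TK6 and BJ by these values and more than it in U2OS at 6 h, a difference between genes that was not tested.

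Across the study FAS and TNFRSF10B followed each other closely, and the other 3 did not follow them closely. In G361, HepG2-labelled and U2OS cells TNFRSF10A was under the level limit and TNFRSF10D near it. Correlations of these receptors therefore rest partly on group means with little signal. After each line's mean was removed, the 25 group means of FAS and TNFRSF10B correlated at 0.913 (Pearson), a description over groups that share lines and controls. Only PARD6G (0.925) and CYFIP2 (0.915) were closer to FAS among 16026 genes, and SUSD6 (0.888) and TIGAR (0.879) came next. Closest to TNFRSF10B were CCNG1 (0.917), FAS, CYFIP2 (0.904), PTP4A1 (0.899) and REV3L (0.879). CCNG1 and TIGAR were themselves in the p53 list. TNFRSF10A had no such close companion, with CBY2 at 0.736, C21orf91 at 0.716, ASPG at 0.703, LINC03002 at 0.702 and CPQ at 0.692. TNFRSF10D was nearest to TOM1L2 (0.800), FOSB (0.797), POLG (0.772), KIZ (0.755) and ARMC12 (0.755). TNFRSF10C was nearest to SAA3P (0.812), GPR173 (0.777), SRCIN1 (0.765), CNBD2 (0.738) and APOE (0.733). Among the receptors themselves the next closest pair was TNFRSF10A and TNFRSF10D at 0.593, and TNFRSF10C correlated with FAS, TNFRSF10B and TNFRSF10D at -0.10.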

How the data were processed

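RNA of 75 samples was measured on Affymetrix arrays of 54675 probe sets. The deposited table holds log2 values that the authors made with RMA, per the submitters' processing notes, with no version named in them. Values ran from 1.64 to 13.99. Probe sets were named from the platform annotation, which gave 1 symbol to 41097, several to 1801 and none to 11777. Symbols were checked against RefSeq, GRCh38.p14, where 41043 matched. Each gene was read from its brightest probe set, by the mean of the 75 arrays.

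Each line's 15 arrays were fitted with limma 3.58.1 in R 4.3.3 (5 group means, 10 residual degrees of freedom, mean-variance trend) over genes whose mean in the line exceeded the level limit, the 40th percentile of probe set means. Differences between lines came from 1 fit of 75 arrays. On simulated data for TK6 at 6 h with 14222 genes, 90 percent of changes of 1 and 100 percent of changes of 2 on the log2 scale were recovered. The changed genes lay more than 1 above the level limit. Smaller changes, changed genes nearer the limit and the other lines were not simulated.

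Named were all 5 receptors, both ligands, up to 3 called pathway genes per comparison, CDKN1A, MDM2 and GDF15, and the 5 genes most like each receptor. The members and lists were chosen with earlier results of these data known. The labels give the groups the same replicate numbers. Deviations from group means of same-numbered arrays correlated above 0.1 in every pair for most irradiation comparisons. The exceptions were the 3 h one of the HepG2-labelled arrays (lowest 0.0961) and the 6 h one of BJ (lowest -0.0306). Blocked values that change a call are therefore given beside the others or in the closing section. Alternatives were no level filter, quantile normalization, other uses of probe sets, other sets of arrays in the fit, no trend, a replicate block, and leaving out replicates or single arrays.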

Additional observations from a re-analysis of the deposited data

Results flagged for a closer look

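These results stand out because the response to irradiation differed between lines in a test of that difference. Over the 5 lines at 3 h the adjusted p from limma's F test was 0.0249 for FAS, 1.71e-05 for TNFRSF10A and 0.0259 for TNFRSF10B, and at 6 h it was 0.00437 for FAS. With TK6, U2OS and BJ alone FAS had adjusted p of 0.961 at 3 h and 0.0516 at 6 h, and TNFRSF10B 0.996 at 3 h. Over the 5 lines the FAS call at 3 h was lost without any 1 replicate number (adjusted p = 0.0944 to 0.525). The FAS call at 6 h was lost without replicate 1 or 2 (adjusted p = 0.158 and 0.301). The TNFRSF10B call at 3 h was lost without replicate 2 or 3 (adjusted p = 0.423 and 0.697) and with the mean of its probe sets (adjusted p = 0.787). The TNFRSF10A call at 3 h over the 5 lines was lost without replicate 2 (adjusted p = 0.0755). The TNFRSF10A response at 3 h differed between TK6 and BJ (adjusted p = 0.0298), a call lost without any 1 replicate number. The fit also called it between U2OS and BJ (adjusted p = 0.000375), a call lost without replicate 2 or 3 (adjusted p = 0.854 and 0.0617). In U2OS the gene was under the level limit, so that call says little about U2OS. The tests over 5 lines for this gene likewise include 3 lines under the limit. Groups of 3 arrays were not searched for single arrays far from the others.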

How the results depend on the processing

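Over all alternatives, 665 of the members' fold change values kept their side of the threshold, 63 lost a call and 18 gained one. Of the 665, 631 kept their direction and 34, called in neither setting, changed sign. Counts of called receptors moved by over 1.5 times as follows. In BJ against untreated cells, the 4 at 3 h became 1 in the 75-array fit and with the compared arrays alone and 2 with the mean of a gene's probe sets, and the 3 at 6 h became 1 with that mean. Against 0 h in BJ, the 3 at 3 h became 1 in the 75-array fit and with the compared arrays alone, and the 3 at 6 h became 1 with the mean of probe sets. In U2OS, the 0 at 3 h became 2 in the 75-array fit and 1 with the mean of probe sets and with the replicate block. The 1 at 6 h became 2 in the 75-array fit, with the mean of probe sets, quantile normalization or the block, and the 1 at 6 h against 0 h became 2 in those settings and with the compared arrays alone. The 0 at 3 h against 0 h in U2OS became 1 with the block. In the HepG2-labelled arrays, the block gave 1 instead of 0 at 6 h against untreated cells and in untreated 6 h against 0 h. Their 2 in irradiated 6 h against 0 h became 1 in the 75-array fit, with all probe sets, the compared arrays alone or no trend. G361 at 6 h against 0 h went from 0 to 1 in the 75-array fit. In untreated TK6, the 1 at 3 h became 2 with quantile normalization and with the block, and the 2 at 6 h became 1 with the mean of probe sets. The 4 tests of unequal response over lines became 1 with TK6, U2OS and BJ alone. The 1 left was TNFRSF10A at 3 h, which was under the level limit in U2OS. The 2 pairwise differences, that of U2OS included, became 1 with the mean of probe sets and 4 with the block.

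Leaving out replicates or single arrays gave 0 to 3 called in BJ at 3 h against untreated cells and against 0 h, and 0 to 2 in BJ at 6 h in both. In the HepG2-labelled arrays it gave 0 to 1 at 6 h, in untreated 6 h against 0 h and in the change of effect from 3 to 6 h. For their irradiated 6 h against 0 h it gave 1 to 2. In TK6 it gave 1 to 2 for irradiated 3 h and for untreated 6 h against 0 h and 0 to 1 for untreated 3 h. In U2OS it gave 0 to 1 at 3 h, 0 to 2 at 6 h, 0 to 1 at 3 h against 0 h and 1 to 2 at 6 h against 0 h. It gave 0 to 2 for the test over lines and 0 to 1 for pairs of lines. Without a whole replicate number the fit has fewer arrays, and the FAS call in U2OS at 6 h then had an adjusted p of at most 0.0664 and that in BJ at 3 h of at most 0.380. Other causes of these moves were not tested.

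Where the numbers do not pair the arrays, the block also called FAS in untreated HepG2-labelled cells at 6 h (adjusted p = 0.00684), TNFRSF10A in BJ at 6 h against 0 h (adjusted p = 0.0324) and TNFRSF10B in untreated TK6 at 3 h (adjusted p = 0.0109). Among the receptors' fold changes by line and the tests between lines, it changed no other call beside those given with the results. Counts of called pathway genes kept within 1.5 times in all 10 comparisons under the alternative run for them. TNFRSF10A and TNFRSF10D lay near or under the level limit in 3 lines each, which limits any statement on them there.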
